A study of Mus musculus with 20 samples.

Results

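The proteasome genes of cultured mouse motoneurons were followed through the axonal and the somatodendritic compartment, with and without Tdp-43. The members are the 50 of 39174 genes in the expression tables that are annotated as protein-coding and whose symbol starts with Psma, Psmb, Psmc, Psmd, Psme, Psmf or Psmg. They hold the 14 constitutive subunits of the core particle (7 of the alpha and 7 of the beta rings), 5 variant core subunits, 17 subunits of the regulatory particle, 13 assembly chaperones, activators and inhibitors, and Psmc3ip, a meiotic recombination factor that shares only the symbol and is no subunit.

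Primary motoneurons of CD-1 mouse embryos were grown for a week in microfluidic chambers, in which axons cross microchannels into a compartment of their own, and total RNA of each side was amplified and sequenced. Control cultures (4 axonal and 4 somatodendritic libraries) carried an empty lentiviral vector and are labelled GFP, and Tdp-43 knockdown cultures (6 and 6 libraries) carried a lentiviral vector that expresses a short hairpin RNA against Tdp-43. All 20 libraries therefore come from lentivirally transduced cells of one strain, the knockdown rests on a single vector, and the labels do not say which libraries share a culture or an animal, so that p-values measure only the spread between libraries. RNA of a compartment is a bulk sample, in which fewer cells or axons and less RNA per cell cannot be told apart.

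The proteasome is the protease that degrades proteins marked with ubiquitin. Its barrel-shaped core particle (20S) is built from alpha rings, which form the gate, and beta rings, of which Psmb5, Psmb6 and Psmb7 carry the peptidase sites. The regulatory particle (19S) caps the barrel: the Psmc ATPases and the Psmd1, Psmd2 and Psmd4 subunits form its base, which unfolds substrates and binds ubiquitin, and most other Psmd proteins form the lid, in which Psmd14 removes ubiquitin chains, while Psmd5, Psmd9 and Psmd10 are chaperones of base assembly. Other caps (the PA28 and PA200 activators, Psme genes) open the gate without ubiquitin, Psmf1 (PI31) is a proteasome-binding protein first described as an inhibitor, and the Psmg proteins help to assemble the core. In neurons the proteasome is present in axons as well as in the cell body.

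The tables give FPKM (fragments per kilobase of transcript, scaled to the mapped fragments of the library) without read counts. The sums of FPKM were between 555991 and 769807 per library. Relative depth, read from the width of the deposited 95% intervals and set to 1 for the deepest library, was 0.612 to 1 in somatodendritic control, 0.530 to 0.674 in control axons, 0.143 to 0.698 in somatodendritic knockdown libraries and 0.103 to 0.760 in knockdown axons. Read as counting error alone, the interval of the median member corresponded to between 0.188 and 15.1 fragments in a library. Values under 1 cannot be counts, so the intervals hold other uncertainty as well and these figures are no fragment counts. Between 3 and 21 members were listed at 0 (at or under 0.001 FPKM). The shallowest libraries, axonal knockdown 5 and somatodendritic knockdown 6, listed 21 and 15 members at 0, so that a 0 there is no sign of absence. The targeted transcript, Tardbp, was at 14.7% of control in the somatodendritic compartment (exact permutation p = 0.00952, two-sided, which is the smallest that 4 against 6 libraries allow) and at 52.9% in the axonal compartment (exact permutation p = 0.143), where 1 knockdown library reached 33.2 FPKM, above the highest control value of 32.3. After scaling the axonal level of Tardbp was 35.1% of control (exact permutation p = 0.0190). Of 6 motoneuron markers, Chat, Isl2 and Mnx1 were at 0 in every library and all 6 were at 0 in the axonal knockdown libraries. Astrocyte markers summed to between 12.2 and 401 FPKM over the 20 libraries.

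The genes of constitutive subunits can be controlled together by NRF1 (Nfe2l1), which binds antioxidant response elements. The element was searched as TGACNNNGC on both strands between 250 bases before and 50 after the annotated start, in RefSeq promoters on GRCm38.p6, which gave a window for 42 of the 50 members. It was present in 6 of the 42 windows (14.3%), against 3781 of 27025 genes (13.99%), in 2 of 11 core and 2 of 14 regulatory members with a window. The matches of core and regulatory members are shown with the element in capitals and up to 10 bases on either side, because the results turn on these particles. All are read 5′ to 3′ along the strand given.
Psmb5: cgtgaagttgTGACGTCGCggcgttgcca (chr14:54618024-54618052, minus strand)
Psmb6: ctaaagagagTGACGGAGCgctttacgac (chr11:70525338-70525366, plus strand)
Psmc6: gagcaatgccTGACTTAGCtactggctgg (chr14:45329587-45329615, minus strand)
Psmd12: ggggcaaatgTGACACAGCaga (chr11:107479278-107479299, minus strand)
The share of members with the element was therefore close to that of all genes, and a match is a description of letters, not of a bound site.

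All constitutive subunits were expressed in both compartments of control cultures, and at levels above those of most genes. Group means of the 14 core genes ranged from 13.9 to 101 FPKM in somatodendritic control libraries (median 41.1) and from 11.7 to 72.8 in axonal control libraries (median 31.3). The 17 regulatory genes ranged from 8.55 to 128 FPKM (median 36.1) and from 7.89 to 96.8 (median 25.1). The median protein-coding gene of at least 1 FPKM stood at 8.07 FPKM in somatodendritic and at 6.64 in axonal control libraries. The 13 assembly factors, activators and Psmf1 had medians of 10.7 and 9.21 FPKM, with Psmf1 the highest of them in somatodendritic control libraries at 36.9 ± 20.02 FPKM (SD, n = 4), a level within the range of the subunits.

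**Figure D1:**
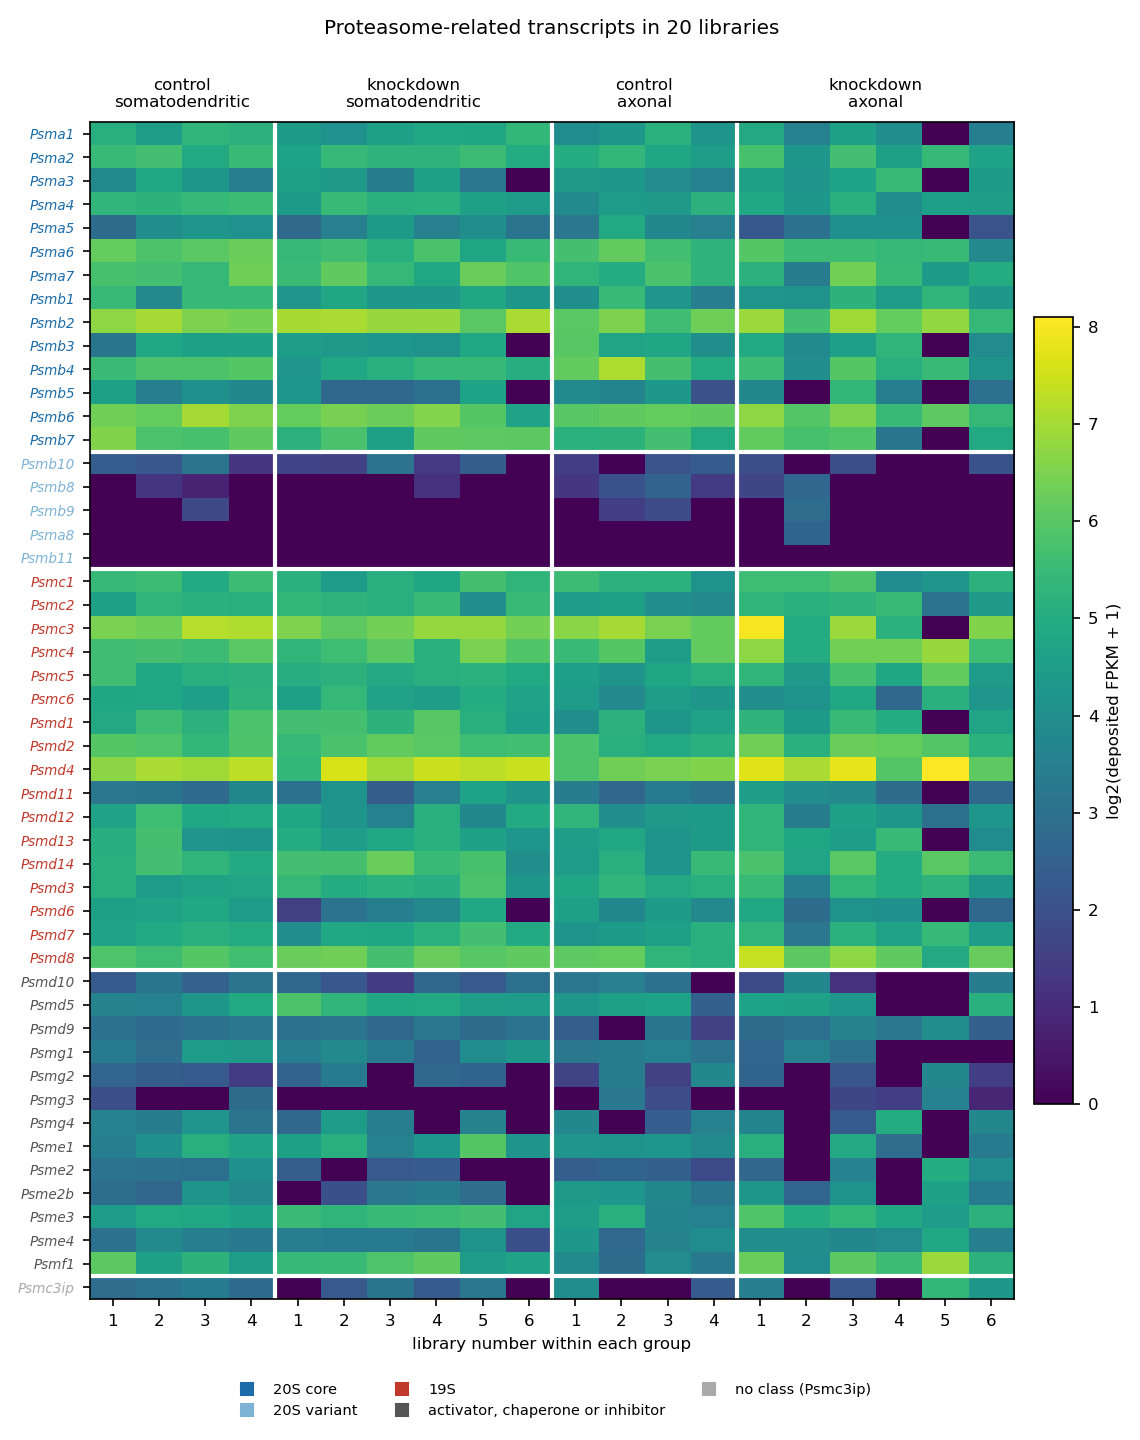
Heat map of log2(deposited FPKM + 1) for the 50 members (coloured by class) in the 20 libraries (columns, numbered within the group). Core and regulatory genes are bright in all 4 groups, the variant genes are dark, and axonal knockdown library 5 and somatodendritic knockdown library 6 hold most of the subunits listed at 0, with 21 and 15 members at 0 in all.

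The subunits of a particle are present in equal numbers in the complex, but their transcripts were not. Psmb2, a beta ring subunit, was the most abundant core transcript in somatodendritic control libraries at 101 ± 19.2 FPKM (SD, n = 4), and Psma5, an alpha ring subunit, the least abundant at 13.9 ± 5.12 FPKM (SD, n = 4), a ratio of means of 7.26. In axonal control libraries the order ran from Psmb4 at 72.8 ± 46.3 FPKM to Psmb5 at 11.7 ± 6.56 FPKM (SD, n = 4), a ratio of 6.23. For no core gene was the lowest of its 4 control values above the highest of the next gene in the order, so that neighbours are not separated beyond their spread. In the regulatory particle Psmd4, the ubiquitin receptor, and Psmc3, a base ATPase, led with 128 ± 23.1 FPKM and 113 ± 35.5 FPKM (SD, n = 4) in somatodendritic control libraries, and Psmd11, a lid subunit, was lowest with 8.55 ± 2.57 FPKM. In the somatodendritic control libraries the lowest Psmc3 value was above the highest of Psmd2, the next in the order, and the lowest Psmd6 value was above the highest of Psmd11, which also held in the axonal control libraries.

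The 3 peptidase subunits differed in level. Psmb6, the caspase-like subunit, had 80.7, 72.1, 127 and 91.3 FPKM in somatodendritic control libraries 1 to 4. Psmb7, the trypsin-like subunit, had 92.9, 54.5, 53.1 and 68.7 FPKM there. Psmb5, the chymotrypsin-like subunit, had 23.4, 10.4, 15.9 and 12.6 FPKM. Psmb5 was the lowest of the 3 in each of these libraries, and it was listed at 0 in 3 of the 20 libraries, all of the knockdown.

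The inducible subunits of the immunoproteasome, which replace the constitutive peptidase subunits in immune cells and after interferon, were close to 0. Psmb10 reached at most 7.65 FPKM, Psmb8 at most 5.37 and Psmb9 at most 6.47, and they were listed at 0 in 5, 11 and 16 of the 20 libraries. Psma8, a subunit of testis, was above 0 in 1 axonal knockdown library only (5.17 FPKM), and Psmb11, a subunit of the thymus, was at 0 in all 20. Microglial markers, a list of 6 genes, summed to between 6.02 and 34.1 FPKM in somatodendritic control, 0 and 18.9 in control axons, 5.50 and 29.1 in somatodendritic knockdown libraries and 3.30 and 52.7 in knockdown axons, and their part in the levels of the inducible subunits was not tested. Of the 50 members, 23 were above 0 in all 20 libraries, among them 8 of 14 core, 12 of 17 regulatory and 3 of 13 other members.

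The first comparison asked which proteasome transcripts changed in the somatodendritic compartment when Tdp-43 was depleted. Core particle transcripts were lower with the knockdown: after scaling all 14 log2 differences were negative (13 of 14 as deposited), against 59.3% of all genes, and their median was -0.72, against -0.13 for all 13762 genes tested. Regulatory particle transcripts lay close to the bulk of genes, with a median of -0.21 and 13 of 17 below 0, and the 12 other members tested had single genes on either side. The alpha ring (median -0.57, 7 genes) and the beta ring (median -0.80, 7 genes) were both below the median of all genes. In the same libraries oligodendrocyte markers (4 genes) summed to 19.03 to 38.9 FPKM in control and 36.6 to 63.3 in knockdown, dividing-cell markers (4 genes) to 49.1 to 69.3 and 0.955 to 57.4, and astrocyte markers (4 genes) to 95.9 to 151 and 84.6 to 217, and their part in the core difference was not tested.

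Of the 45 members tested in this compartment, 10 were lower at an unadjusted p under 0.05, against 9.22% of all genes, and 1 was higher, against 4.59%. They were 5 of 14 core genes, 3 of 17 regulatory genes and 2 of 12 other members among the lower ones. At an adjusted p under 0.05 (limma, adjusted over all genes) 0 of the 45 were called, against 0.974% of all genes; 11 had an unadjusted p under 0.05, against 13.8%. In 3 members each knockdown value was under the lowest control value, against 3.6% of all genes, and in 0 members the order was the opposite, against 1.9%. With FPKM as deposited, without scaling, 4 members were lower and 2 higher at an unadjusted p under 0.05, against 5.44% and 9.27% of all genes, and the median of all genes moved from -0.13 to 0.04 while the core median was -0.51, and relative to the median of all genes the core stood at -0.58 after scaling and at -0.55 as deposited.

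Psma6 (alpha ring; chr12:55384222-55418454, plus strand in GRCm38, GENCODE M21) had 71.3, 55.9, 63.9 and 77.3 FPKM in control libraries 1 to 4. In the 6 knockdown libraries it had 26.02 to 53.4 FPKM with a median of 42.8. The groups were separate, with knockdown the lower, and the log2 difference was -0.93 (SE 0.21, adjusted p = 0.0648). Psmb4 (beta ring; chr3:94884093-94886961, minus strand), had 44.8, 56.1, 56.1 and 61.1 FPKM in control and 17.6 to 42 FPKM with a median of 33.1 in knockdown libraries. These groups did not overlap either, and the log2 difference was -0.98 (SE 0.24, adjusted p = 0.0767). Both genes kept an unadjusted p under 0.05 when any library was left out.

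Psma4, an alpha ring subunit, was lower with a log2 difference of -0.72 (SE 0.24, adjusted p = 0.177). Its control libraries held 39.1, 36.98, 41.7 and 45.6 FPKM and the knockdown libraries 20.4 to 43.8 FPKM with a median of 28.2, and 1 knockdown library reached into the control range. Psmb1, a beta ring subunit, had 43.9, 13.1, 42.2 and 42.4 FPKM in control libraries, of which the second stood apart, and 17.8 to 26.4 FPKM with a median of 18.9 in knockdown libraries, with a log2 difference of -0.80 (SE 0.31, adjusted p = 0.273). Without that control library the log2 difference of Psmb1 was -1.20 with an adjusted p of 0.033, and over the other libraries left out its adjusted p reached 0.541. Without control library 1, 3 or 4 Psmb1 no longer had an unadjusted p under 0.05. Psmb6 had a log2 difference of -0.71 (SE 0.31, adjusted p = 0.328), and its lowest value, 24.2 FPKM, was that of the shallowest somatodendritic library. As deposited the differences of Psma4, Psmb1 and Psmb6 were -0.52, -0.60 and -0.50, none with an unadjusted p under 0.05.

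Among the other peptidase subunits, Psmb5 had 0 to 24.9 FPKM with a median of 6.28 and Psmb7 23.6 to 68.7 FPKM with a median of 59.9 in knockdown libraries. Their log2 differences of -1.30 (SE 0.70) and -0.62 (SE 0.30) had adjusted p-values of 0.450 and 0.389. Psmb2, the most abundant core transcript, had a log2 difference of -0.04 (SE 0.23), the smallest of the 14.

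In the regulatory particle Psmd6, a lid subunit, had 23.3, 24.7, 28.3 and 21.3 FPKM in control libraries. In the 6 knockdown libraries it had 0 to 27.7 FPKM with a median of 8.98. Knockdown values were under the lowest control value in 5 libraries and within the control range in 1 (27.7 FPKM), and the log2 difference was -2.05 (SE 0.72, adjusted p = 0.217). Psmd12, also of the lid, had a log2 difference of -0.82 (SE 0.34, adjusted p = 0.298), and Psmc3, the ATPase with the highest level, one of -0.47 (SE 0.20, adjusted p = 0.310). As deposited the differences of Psmd12 and Psmc3 were -0.62 and -0.26, neither with an unadjusted p under 0.05. The 6 ATPases had a median of -0.30, the 3 remaining base subunits one of -0.20, and the 8 lid subunits one of -0.10 with 4 on either side of 0.

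The PA28 activator genes were not alike. Psme2, which encodes PA28 beta, had 7.58, 7.16, 6.84 and 15.7 FPKM in control libraries. In knockdown libraries it was listed at 0 in 3 and had 4.45, 3.76 and 4.06 FPKM in the others. The groups did not overlap, and the log2 difference was -2.26 (SE 0.61, adjusted p = 0.105). Psme2b, which is 99.4% identical to Psme2 over 794 aligned bases and can share its fragments, had a log2 difference of -1.65 (SE 0.71, adjusted p = 0.322). Summed over both copies, control libraries had 12.6 to 28.8 FPKM and knockdown libraries 0 to 13.6 as deposited, which overlapped, and 13.9 to 29.8 and 0 to 12.1 after scaling, which did not. Psme1, which encodes PA28 alpha, the partner of Psme2, had a log2 difference of 0.09 (SE 0.42). Psme3, the PA28 gamma of the nucleus, was higher in knockdown libraries, 25.5 to 50.9 FPKM with a median of 43.7, than in control libraries, 20.9, 29.2, 27.6 and 24.1 FPKM, with a log2 difference of 0.45 (SE 0.20, adjusted p = 0.328). Psme3 no longer had an unadjusted p under 0.05 in 8 of 10 cases with a library left out.

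**Figure D2:**
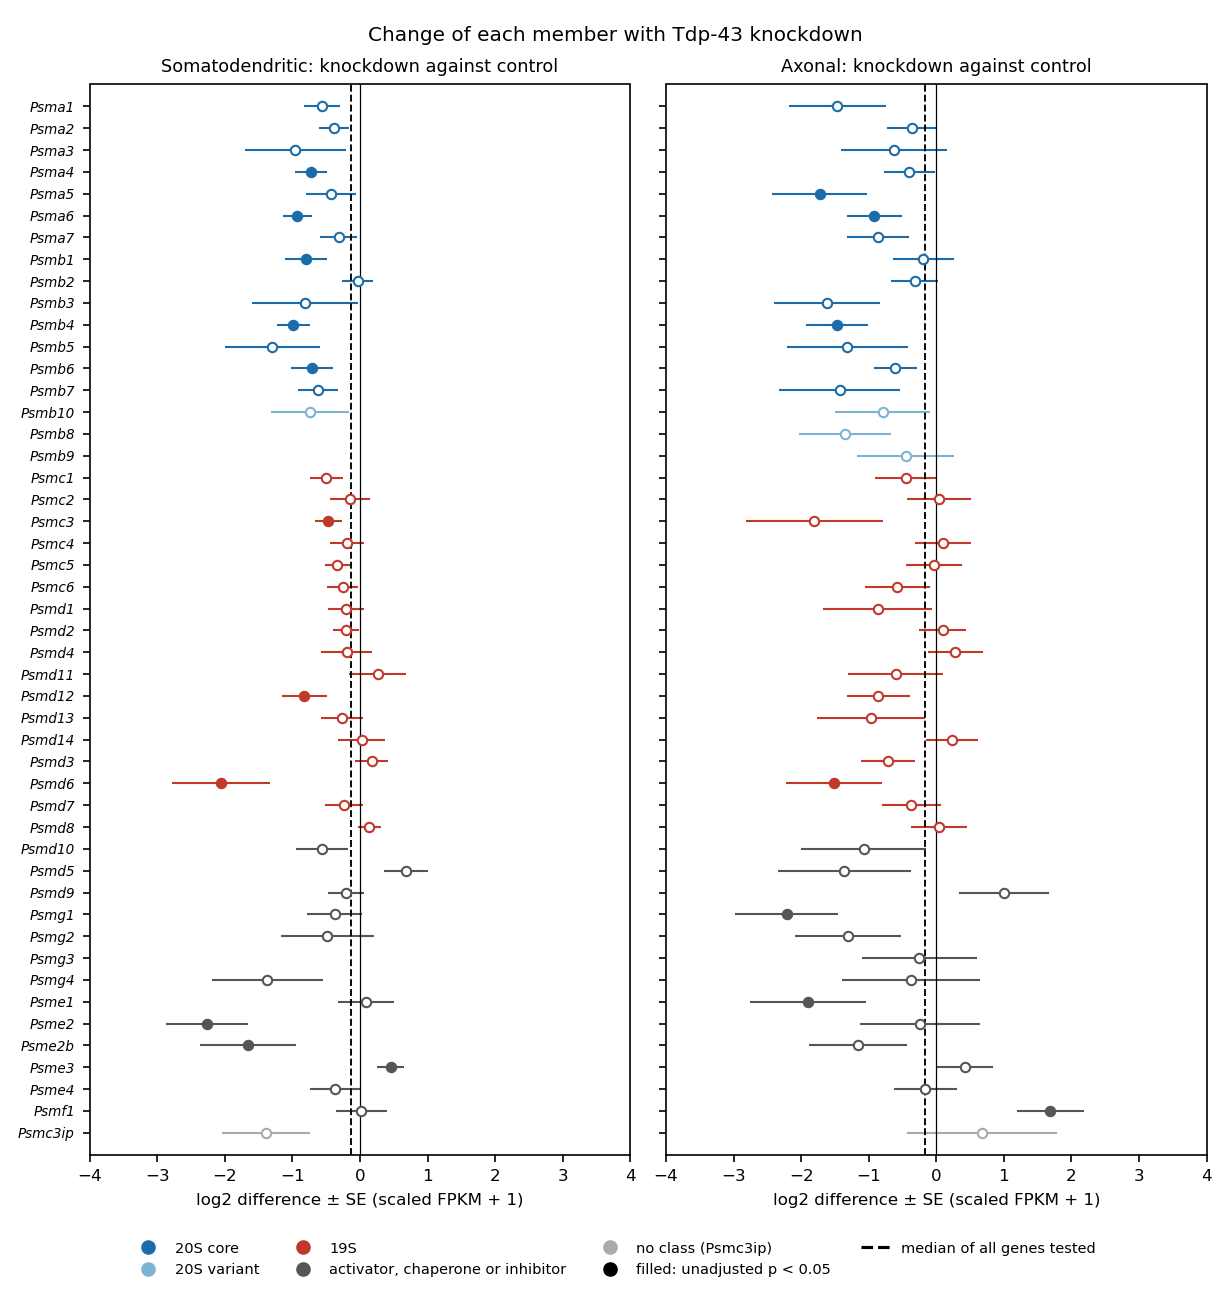
Log2 difference ± SE (scaled FPKM + 1) between knockdown and control libraries for each member tested, somatodendritic on the left and axonal on the right, with filled points for an unadjusted p under 0.05 and a dashed line at the median of all genes. After scaling all 14 core points lie below 0 in both panels (13 and 10 of 14 as deposited), with medians of -0.72 and -0.89, whereas the regulatory points lie on either side of the dashed line.

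The second comparison asked the same of axons. Core transcripts were again lower with the knockdown, with all 14 differences negative after scaling (10 of 14 as deposited), against 58.7% of all genes, and a median of -0.89, against -0.17 for the 13958 genes tested. The regulatory particle had a median of -0.45 with 11 of 17 below 0. Psmf1 was higher in knockdown axons, and Psmg1, Psmb4, Psma5 and Psma6 were lower, all at unadjusted p only, and with FPKM as deposited Psmb4, Psma5 and Psma6 did not pass that either (log2 differences of -0.95, -1.28 and -0.40). A list of 6 transcripts of the cell body, among them the nuclear RNAs Malat1 and Meg3, summed to 454 to 750 FPKM in control axons and 1174 to 2326 in knockdown axons, with 789 to 1164 and 710 to 1379 in the somatodendritic groups. Malat1 led these sums and alone separated the axonal groups, at 312 to 489 FPKM in control and 1041 to 1800 in knockdown axons. Meg3, Neat1, Snhg11 and Hoxc8 overlapped between the groups, and Isl1 had means of 1.87 FPKM in control and 0 in knockdown axons. The part of the listed transcripts in the axonal differences was not tested.

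Of the 48 members tested in axons, 6 were lower at an unadjusted p under 0.05, against 6.46% of all genes, and 1 was higher, against 2.14%. The lower ones were 3 of 14 core, 1 of 17 regulatory and 2 of 13 other members. None passed an adjusted p of 0.05 in limma, against 0.401% of all genes; 7 had an unadjusted p under 0.05, against 8.6%. After scaling, Psmb6 alone had no overlap between the groups (lower in knockdown libraries), against 2.02% of all genes lower without overlap and 2.47% in either direction, with an adjusted p of 0.634. Before scaling its means were 68.2 FPKM in control and 67.8 in knockdown axons. The deposited knockdown range of 41.4 to 104 FPKM enclosed the control range of 62.9 to 72.04. With FPKM as deposited 1 member was lower and 2 higher, against 2.67% and 7.16% of all genes, the median of all genes was 0.23, and the core median was -0.38 with 10 of 14 below 0.

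Psmb4 had 70.9, 138, 51.4 and 30.95 FPKM in axonal control libraries. In axonal knockdown libraries it had 14.5 to 62.02 FPKM with a median of 39.1. The groups overlapped, control library 2 was far above the others, and the log2 difference was -1.47 (SE 0.46, adjusted p = 0.299). Psma6 had 50.9, 70.5, 49.3 and 37.7 FPKM in control and 13.2 to 61.2 FPKM with a median of 44.7 in knockdown axons, which overlap almost completely as deposited, with a log2 difference after scaling of -0.91 (SE 0.40, adjusted p = 0.546). Psma5 had 8.36, 29.01, 12.3 and 10.6 FPKM in control and 0 to 15.9 FPKM with a median of 5.37 in knockdown axons, with a log2 difference of -1.73 (SE 0.71, adjusted p = 0.49). Psma5 has 2 near-identical pseudogenes in the tables, and summed over the 3 genes the ranges overlapped, at 14.7 to 46.4 FPKM in control and 0 to 43.2 in knockdown axons as deposited and at 16.99 to 54.6 and 0 to 30.5 after scaling.

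Psmf1 (chr2:151715812-151744186, minus strand), the PI31 gene, had 13.4, 6.24, 13.9 and 8.62 FPKM in axonal control libraries. In axonal knockdown libraries it had 14.4 to 118 FPKM with a median of 55.7. As deposited every knockdown library lay above every control library, and after scaling the groups overlapped. The log2 difference was 1.69 (SE 0.50, adjusted p = 0.260) after scaling and 2.18 as deposited, and an unadjusted p under 0.05 remained when any library was left out. In the somatodendritic compartment Psmf1 had 65.1, 23.8, 37.2 and 21.7 FPKM in control and 20.7 to 68.7 FPKM with a median of 42.95 in knockdown libraries, a log2 difference of 0.02 (SE 0.38). The axonal control libraries thus held less of this transcript than any other group, each of them below every somatodendritic library. The part of the cell-body transcripts, of which Malat1 alone separates the same axonal libraries, in the Psmf1 difference was not tested.

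Psmg1 (chr16:95979933-95990960, minus strand), a chaperone of alpha ring assembly, had 8.57, 9.93, 10.8 and 7.57 FPKM in axonal control libraries. It was listed at 0 in 3 of the 6 axonal knockdown libraries and had 5.23, 10.8 and 7.01 FPKM in the others, with a log2 difference of -2.21 (SE 0.76, adjusted p = 0.367). The libraries at 0 were knockdown 4, 5 and 6, with relative depths of 0.316, 0.103 and 0.704. Psme1 was listed at 0 in knockdown axons 2 and 5 and had a log2 difference of -1.89 (SE 0.86, adjusted p = 0.562). Psmd6 had 0 to 27.8 FPKM with a median of 11.1 in knockdown axons against 23.6, 12.8, 20.4 and 13.2 FPKM in control axons, with a log2 difference of -1.51 (SE 0.71, adjusted p = 0.575). When libraries under 0.5 of the deepest were left out, which leaves 3 of 6 knockdown axons, the log2 differences were -1.97 for Psmg1, -0.81 for Psmd6 and -0.26 for Psme1, the last with an adjusted p of 0.928. In that subset Psmd6 and Psme1 no longer had an unadjusted p under 0.05. Nor did they as deposited, with log2 differences of -1.04 for Psmd6 and -1.42 for Psme1.

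**Figure D3:**
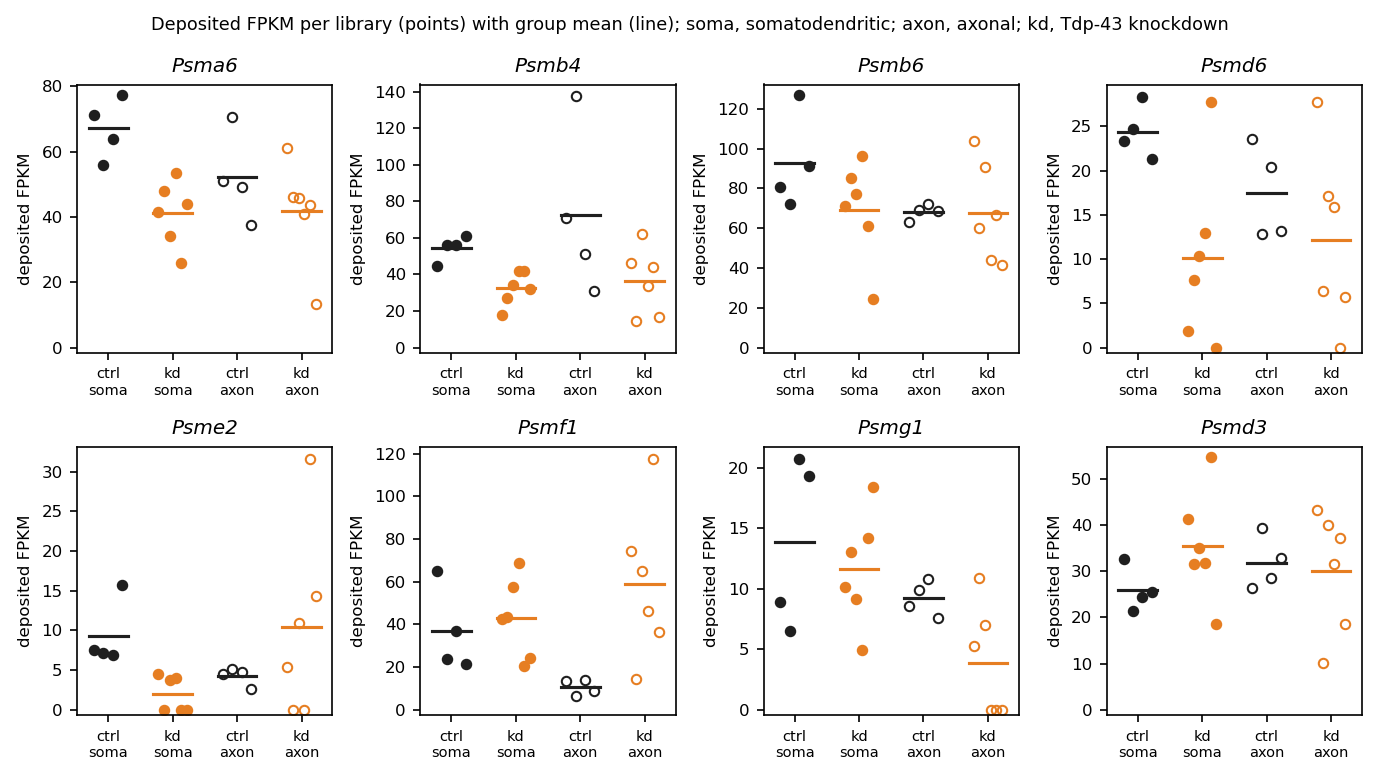
Deposited FPKM of 8 members in each library (points; filled, somatodendritic; open, axonal; black, control; orange, knockdown) with the group mean as a line. Psma6, Psmb4 and Psme2 are lower in every somatodendritic knockdown library than in any control library, Psmf1 is higher in every axonal knockdown library (14.4 to 118 FPKM) than in any axonal control library (6.24 to 13.9 FPKM), and Psmd3 values of knockdown and control libraries overlap in both compartments.

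Summed over each particle within a library, a measure that does not depend on scaling between libraries, transcripts of the core were lower relative to those of the regulatory particle in knockdown than in control libraries. The 14 core genes summed to 619 to 690 FPKM in somatodendritic control and 476 to 601 in somatodendritic knockdown libraries, whereas the 17 regulatory genes summed to 702 to 844 and 643 to 881. The ratio of the core to the regulatory sum was 0.787 to 0.935 in control and 0.607 to 0.772 in knockdown libraries of this compartment. In axons the sums of both particles overlapped, with a mean of 513 ± 97.4 FPKM in control (SD, n = 4) and 464 ± 168 in knockdown libraries (SD, n = 6) for the core and of 591 ± 57.3 and 794 ± 289 for the regulatory particle, so that the means of the regulatory sum lay further apart than those of the core. The axonal ratio was 0.702 to 0.983 in control and 0.504 to 0.692 in knockdown libraries. The ranges did not overlap in either compartment, but the gaps between them were small: leaving out a single gene kept them apart for 24 of 31 genes in the somatodendritic and for 19 of 31 in the axonal compartment. They overlapped without Psmb4, Psma2, Psma4, Psmc3, Psmd4, Psmd3 or Psmd8 in the former and without Psmb6, Psma6, Psmb7, Psmb2, Psma4, Psmd4, Psmd2, Psmc1, Psmd13, Psmc2, Psmd8 or Psmc4 in the latter. Sums are led by the most abundant subunits. When each gene had the same weight, as the mean log2 value of the core minus that of the regulatory particle, the ranges overlapped, at -0.15 to 0.17 in control and -0.86 to -0.13 in knockdown somatodendritic libraries and at -0.33 to 0.32 and -0.64 to -0.11 in axonal libraries. No test was made of these summaries.

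**Figure D4:**
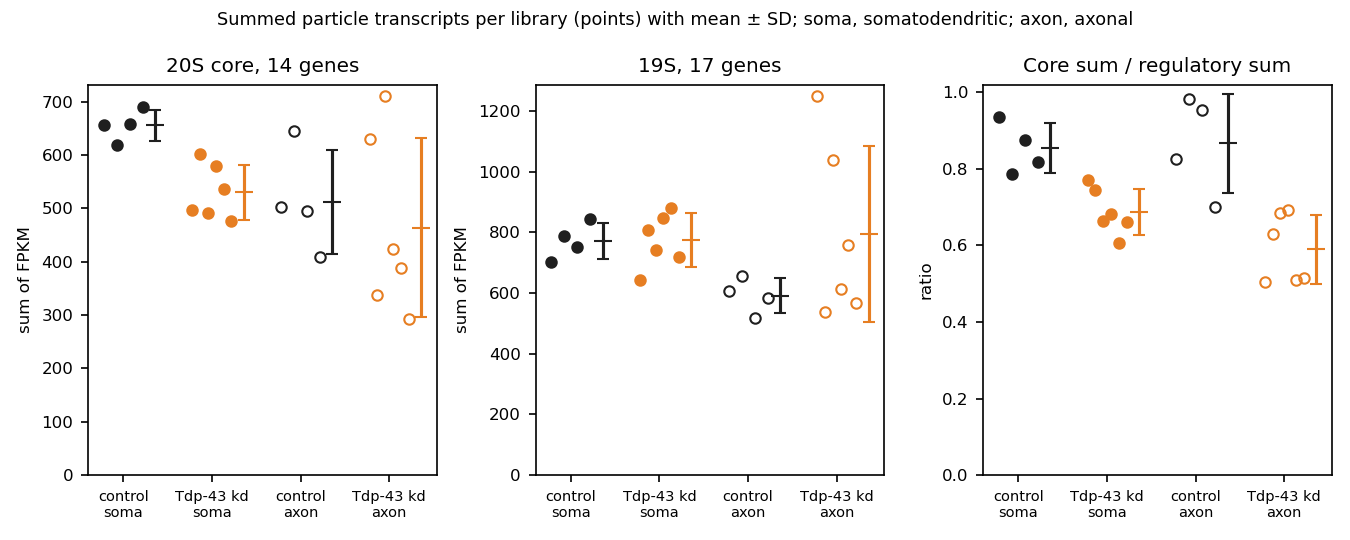
Sum of deposited FPKM over the 14 core genes (left) and the 17 regulatory genes (middle) and their ratio (right) in each library (points), with mean ± SD beside them. The ratio lies between 0.702 and 0.983 in control and between 0.504 and 0.772 in knockdown libraries.

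The core genes have shorter transcripts than most genes, with a median exonic length of 2335 bases against 2820 for the regulatory particle and 4209 for all genes tested, and depth was lower in several knockdown libraries. With a correction over exonic length the core medians were -0.48 in the somatodendritic compartment and -0.55 in axons, against all-gene medians of 0.01 and 0.00. Without the libraries under 0.5 of the deepest they were -0.53 and -0.35, against -0.03 and 0.06. In that subset 13 members were lower and 2 higher in the somatodendritic comparison, against 9.38% and 6.52% of all genes, and 5 were lower and 1 higher in axons, against 4.2% and 3.53%.

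The difference of the knockdown effect between the compartments, tested in a single model over the 20 libraries, had an unadjusted p under 0.05 for 2 of 47 members, against 5.61% of all genes (2.86% lower and 2.75% higher). Psmf1 had a difference of 1.65 (SE 0.64, adjusted p = 0.839) and Psmg1 one of -1.95 (SE 0.91, adjusted p = 0.878) on the log2 scale (axonal minus somatodendritic effect). None passed the adjusted threshold in limma, against 0.0711% of all genes. With FPKM as deposited the share of higher differences among all genes past an unadjusted p of 0.05 was 80.3%, against 49.0% after scaling. The median difference was -0.23 for the core and -0.07 for the regulatory particle, against -0.04 for all genes with 52.3% below 0, and no test of a difference between compartments was made for the core as a whole.

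The next comparison asked where the transcripts lie in control cultures. Both particles lay close to other genes: after scaling the median log2 difference between axonal and somatodendritic libraries was 0.06 for the core and 0.05 for the regulatory particle, against -0.06 for all 13760 genes tested. After scaling all 8 lid subunits had differences above 0, from 0.01 to 0.79, whereas 53% of all genes were below 0, but as deposited 16 of the 17 regulatory genes were below 0. Psmd3 and Psmb8 were higher and Psmf1 was lower in axons at an unadjusted p.

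Of the 47 members tested, 1 was lower at an unadjusted p under 0.05, against 11.8% of all genes, and 4 were higher, against 11.1%. None passed an adjusted p of 0.05 in limma, against 6.9% of all genes; 5 had an unadjusted p under 0.05. Scaled values of 2 members (Psmd3 and Psmb8) did not overlap between the compartments, against 7.66% of all genes higher and 8.54% lower in axons without overlap. The direction of these differences rests on scaling, since with FPKM as deposited the median of all genes was -0.48, 8 members were lower and 1 was higher (26% and 5.34% of all genes), and the medians of the core and the regulatory particle were both -0.46.

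Psmd3, a lid subunit, had 26.4, 39.4, 28.5 and 32.9 FPKM in axonal and 32.7, 21.4, 24.5 and 25.6 in somatodendritic control libraries. These values overlapped as deposited and did not after scaling, with a log2 difference of 0.79 (SE 0.24, adjusted p = 0.0716). Psmb8, the inducible counterpart of Psmb5, had 1.42, 3.10, 5.04 and 1.61 FPKM in axonal control libraries and 0, 1.39, 0.727 and 0 in somatodendritic ones, without overlap on either scale, and a log2 difference of 1.54 (SE 0.52, adjusted p = 0.104) at levels near the floor of detection. Psmf1 was lower in axons without overlap as deposited, with a log2 difference of -1.14 (SE 0.40, adjusted p = 0.118) after scaling and of -1.64 (adjusted p = 0.0190, limma) as deposited. Psmb3, a beta ring subunit, had 62.6, 25.8, 26.6 and 15.4 FPKM in axonal and 7.81, 27.6, 23.3 and 23.9 in somatodendritic libraries, with a log2 difference of 1.09 (SE 0.47, adjusted p = 0.193), and 1 axonal library stood far above and 1 somatodendritic library far below the rest. Psmb3 has a near-identical pseudogene, Gm4950. Summed over both as deposited, the ranges were 15.4 to 84.96 FPKM in axonal and 20.6 to 41.7 in somatodendritic control libraries. Psme2b had a log2 difference of 0.94 (SE 0.41, adjusted p = 0.201) after scaling and of 0.46 as deposited, there without an unadjusted p under 0.05. Summed with its near-identical copy Psme2 as deposited, it had means of 18.6 FPKM in axonal and 19.98 in somatodendritic control libraries. Markers of dividing cells (4 genes) summed to 94.4 to 179 FPKM in axonal and 49.1 to 69.3 in somatodendritic control libraries, and fibroblast markers (5 genes) to 11.9 to 47.9 and 1.43 to 11.9, and their part in these differences was not tested.

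**Figure D5:**
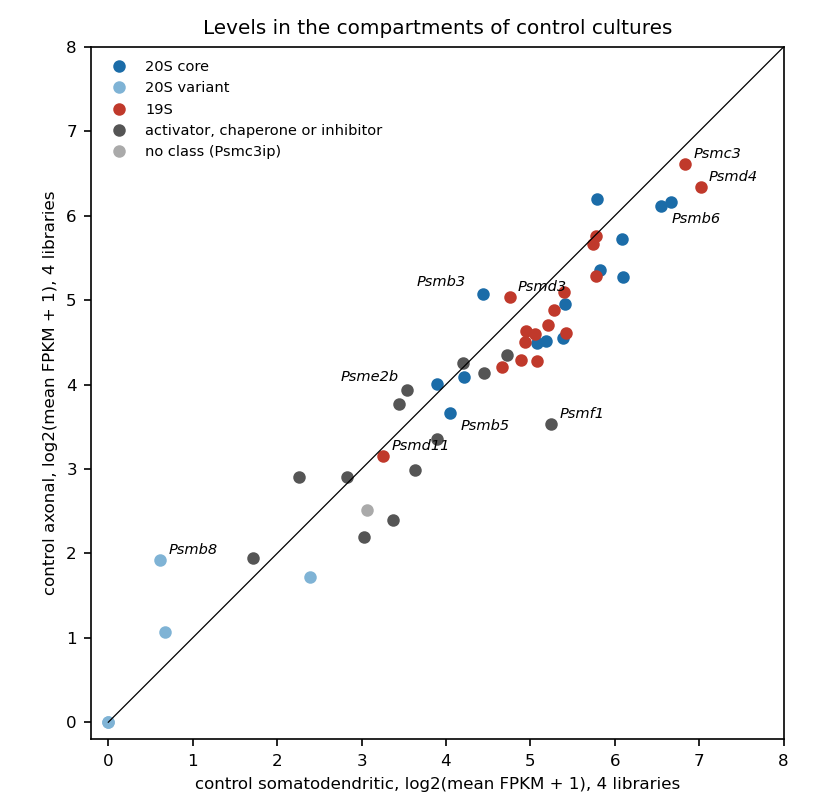
Mean deposited FPKM of each member in axonal (vertical) against somatodendritic (horizontal) control libraries, as log2(mean + 1), n = 4 each, with the line of equal levels. Most subunits lie just below the line, as does the median of all genes (-0.48 as deposited), whereas Psmf1 lies well below and Psmb8 above it.

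In knockdown cultures the same comparison gave medians of 0.02 for the core and 0.05 for the regulatory particle, against -0.07 for all 14021 genes tested, of which 53.2% were below 0. Of 46 members, 2 were lower in axons (Psmg1 and Psme1) and 2 were higher (Psme4 and Psmg3) at an unadjusted p under 0.05, against 8.73% and 7.86% of all genes, and all 4 are chaperones or activators. When libraries of relative depth under 0.5 were left out, Psmg1, Psme1 and Psme4 no longer passed, with log2 differences of -1.43, 0.14 and 0.51, so that Psme1 changed direction. With FPKM as deposited 3 were lower and 1 was higher, against 12.6% and 5.5%. None passed the adjusted threshold in limma, against 1.28% of all genes; 4 had an unadjusted p under 0.05. No member was separated between these groups of libraries, against 1.37% of all genes lower and 1.1% higher in axons (2.47% in all). The log2 differences were -1.89 (SE 0.70, adjusted p = 0.184) for Psmg1 and 0.98 (SE 0.41, adjusted p = 0.240) for Psme4, the PA200 activator. Psmg3, a chaperone, was at 0 in all 6 somatodendritic and in 2 of 6 axonal knockdown libraries, and its highest value, 11.1 FPKM, was in the shallowest library.

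Other genes of the pathway were read from a list of 27 genes for proteasome partners, ubiquitin itself, shuttle factors, the VCP segregase and the transcription factors. Ubb, a polyubiquitin gene, had log2 differences of -0.98 in axons and -0.48 in the somatodendritic compartment, without overlap in either (2.02% and 3.6% of all genes were lower without overlap), at adjusted p-values of 0.286 and 0.102 (limma). As deposited the differences of Ubb were smaller, at -0.46 in axons and -0.27 in the somatodendritic compartment (adjusted p = 0.720 and 0.289, limma), and the axonal one no longer passed at an unadjusted p under 0.05. Rad23b, a shuttle factor, had a log2 difference of 0.73 in the somatodendritic compartment (adjusted p = 0.0916, limma), with every knockdown library above every control library, against 1.9% of all genes. As deposited the difference of Rad23b was 0.94 with an adjusted p of 0.0228 (limma), and over the alternatives its adjusted p ranged from 0.0228 to 0.626.

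Counted over the list, 2 of 27 were lower and 1 higher at an unadjusted p in the somatodendritic comparison and 2 lower and 0 higher in axons, with medians of -0.17 and -0.20. Of all genes, 9.22% were lower and 4.59% higher in the former and 6.46% and 2.14% in the latter comparison. Between control compartments 1 was lower, against 11.8% of all genes, and 5 were higher, against 11.1%. Pomp, the maturation factor of the core, had 32.8 ± 5.69 FPKM in somatodendritic control (SD, n = 4) and 40.1 ± 12.6 in knockdown libraries (SD, n = 6) as deposited. Scaling divides these control libraries by 0.905 to 0.969 and these knockdown libraries by 0.993 to 1.15, which narrows that gap. Nfe2l1 itself had 81.9 ± 1.61 and 106 ± 45.8 FPKM in the same groups as deposited, with a log2 difference of 0.04 after scaling (adjusted p = 0.968, limma).

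Some members share sequence with copies between which the fragments could have been split. Of the 50 members, 11 have a pseudogene or another member in the tables that matches their transcripts at 95% identity or more over at least 100 bases. For Psma3 a copy, Gm13835, was identical over 685 bases and had a mean of 44.6 FPKM, above the 17.4 FPKM of Psma3, so that the level of Psma3 is uncertain. Summed over both, the somatodendritic mean of Psma3 was 61.4 ± 16.3 FPKM in control (SD, n = 4) and 64.5 ± 12.8 in knockdown libraries (SD, n = 6) as deposited, and 65.8 ± 18.4 and 59.2 ± 9.94 after scaling, so that its direction depended on the scaling. The sum of Psma4 and its copy was 39.9 to 49.1 FPKM in control and 32.3 to 45.4 in knockdown libraries as deposited, with overlap, and 44.1 to 50.7 and 28.8 to 42.4 after scaling, without. Exons of several members overlap those of expressed neighbours on the other strand, among them Psmb7, Psmc3 and Psmd13 with Nek6, Slc39a13 and Sirt3. The inducible Psmb9 overlaps Tap1 in this way over 212 bases, and Tap1 reached 29.8 FPKM. Whether the counting used strand is not given in the sources used here. Psmd1 overlaps Gm21972 over 301 bases on the same strand, where strand cannot tell them apart, and Gm21972 reached 25.6 FPKM.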

How the data were processed

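Libraries were prepared from total RNA of each compartment (4 control and 6 knockdown libraries each) and sequenced; the submitters' processing notes name FastQC 0.10.1, Cufflinks 2.2.1 and GRCm38. The authors deposited Cufflinks FPKM with a 95% interval for each gene and library; an aligner version and read counts are not given in the sources used here. FPKM were scaled here by median-of-ratios factors within the libraries of each comparison, genes averaging under 1 FPKM were left out, and log2(FPKM + 1) was tested with limma 3.58.1 (moderated, with an intensity trend; R 4.3.3) and Benjamini-Hochberg adjustment over all genes tested. This differs from a count test, since depth per gene is unknown; relative depth was read from the deposited intervals over 680 genes. A fold change on this scale understates that of low genes. Tardbp was compared by a two-sided exact permutation test. Near-identical copies were found with blastn 2.17.0 against GENCODE M21 transcripts. The fits were also run on simulated data. Those data were not matched to the 0 values of the shallow libraries, so the run is no check of low members.

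The members and gene lists were chosen with earlier results of these data known. Classes followed the known subunits of the particles. Genes were named where they had an adjusted p under 0.05, were among the 5 largest differences in either direction at an unadjusted p under 0.05, encode peptidase subunits, were highest or lowest in their class, or occur in lists the study drew from these libraries (Psma4, Psma6, Psmb1, Psmb4, Psmb6, Psmd12, Psme3 and Psmf1, for which the present values are therefore no independent evidence). Psmd3, Psmg3, Psma3 and other genes outside these criteria were named after their values were seen. Alternatives were other scalings, pseudocounts, filters, weights, a replicate block, a joint fit and leaving out each library. Corrections over length and level, deeper libraries alone and sums without a member were added after the data were seen. Some genes of the pathway list are counted but not reported here by name.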

Additional observations from a re-analysis of the deposited data

Results flagged for a closer look

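Single libraries stood apart from the rest of their group in 6 of 92 groups examined, where chance gives about 1 in 20. The mean log2 value of the 14 core genes was 4.04 in somatodendritic knockdown library 6, the shallowest of its group, against 4.67 to 4.95 in the others. Psmb1 was at 13.1 FPKM in somatodendritic control library 2, against 42.2 to 43.9 in the others. Psme2 was at 15.7 FPKM in somatodendritic control library 4, against 6.84 to 7.58. Psmb8 was at 1.22 FPKM in somatodendritic knockdown library 4 and listed at 0 in the others. Axonal knockdown library 5, the shallowest of all, held 27.2 FPKM of Psme4, against values between 10.3 and 15, and 11.1 FPKM of Psmg3, against 0 to 2.24.

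The knockdown effect differed between the compartments at an unadjusted p under 0.05 for Psmf1 (log2 difference 1.65, higher in axons) and Psmg1 (-1.95, lower in axons), and neither difference passed the adjusted threshold in limma (adjusted p = 0.839 and 0.878).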

How the results depend on the processing

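Depth limits these results: read as counting error alone, the interval of the median member gave 0.188 to 15.1 fragments in a library. These figures are not counts, since the intervals hold other uncertainty as well. Low members cannot be separated from 0 in the shallow knockdown libraries. The lower level of the core relative to all genes kept its direction in both knockdown comparisons under all alternatives run, whereas counts of single members did not stay within 1.5 times. The numbers of the libraries pair nothing in the labels: same-numbered libraries correlated at -0.063 to 0.088, and 1 of 4, 2 of 4, 1 of 4 and 1 of 6 correlated best with their own number in the 4 comparisons.

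In the main fits 13.8%, 8.6%, 22.9%, 16.6% and 5.61% of all genes had an unadjusted p under 0.05, in the order of the comparisons below. Calls over all genes moved with the setting as well, so the shifts below are not shown to be particular to the members. Members with an unadjusted p under 0.05 numbered 11 in the somatodendritic knockdown comparison and 6 with FPKM as deposited, 17 with array weights, 7 in a joint fit of 20 libraries and 7 to 14 with a library left out (7 without control 4). With an adjusted p under 0.05 there were 0, against 1 with a pseudocount of 5, 2 with array weights and 0 to 1 with a library left out (1, Psmb1, without control 2). The regulatory median relative to all genes was -0.07, and -0.26 with quantile normalization. In axons 7 members became 3 with FPKM as deposited, 3 with the replicate block, 14 in the joint fit, 3 with the length correction and 3 to 11 with a library left out (4, 3 and 4 without control 1, 2 and 3, and 11 without knockdown 1). The joint fit gave 1 adjusted call there. Between control compartments 5 members became 9 with FPKM as deposited, 3 with quantile normalization, 3 without a filter, 3 with the block, 3 in the joint fit and 2 to 10 with a library left out (10 without axonal control 4 and 2 without somatodendritic control 1). Adjusted calls there were 0, with 1 as deposited and 0 to 1 with a library left out. Between knockdown compartments 4 members became 1 to 6 with a library left out. The 2 differences between compartments in the knockdown effect became 1 with FPKM as deposited, 1 with quantile normalization and 1 with the level correction. Tardbp in axons was at 35.1% of control after scaling (exact permutation p = 0.0190) and at 36.5 to 62.5% with a library left out. The axonal minus somatodendritic difference of Ubb in control was -0.12 as deposited, and that of Psme1 in knockdown was 0.14 in the deeper libraries, both reversed. The cause of these changes was not tested.

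Of 545 values of 46 named differences under other settings, 428 kept direction and call, 115 no longer had an unadjusted p under 0.05 and 2 reversed; with a library left out, 333 of 455 kept both and 122 lost the call. Over all genes, adjusted calls in the somatodendritic knockdown comparison were 134, and 233 as deposited, 432 with array weights, 212 with a pseudocount of 5, 85 with the length correction, 61 in the joint fit and 18 with the block. In axons they were 56, and 87, 30 (pseudocount of 0.1), 236 (joint fit) and 35 (block), the first with array weights. Between control compartments they were 949, and 2055 as deposited, 430 with the block and 295 in the joint fit. Between knockdown compartments they were 179, and 389 with quantile normalization, 402 with array weights, 753 in the joint fit, 74 with a pseudocount of 0.1, 76 in the deeper libraries, 52 without a filter and 13 with the block.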
